A study of Homo sapiens with 9 samples.

Results

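The comparison set HEK293 cells labelled with Cas9 and Cre recombinase against HEK293 cells labelled with Cas9 and Flpo recombinase, by RNA sequencing of 3 libraries of each, chosen by their titles. These are 6 of the 9 libraries of the series. The other 3 libraries are labelled with Cas9 alone. They entered the fit through the filter on low counts, the scaling and the estimate of the spread, and not through the difference tested. HEK293 is a human embryonic kidney cell line carrying part of an adenovirus genome. The genotypes are CC_Cas9_Cre and CC_Cas9_Flpo. All 6 libraries share CC and Cas9, and the labels do not explain CC. No promoter, clone, passage, induction or time is given in the labels. Whether each recombinase line is 1 clone is therefore not stated, nor whether the replicates are separate cultures, so the p-values measure the spread between these libraries, which may be technical.

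Cre and Flpo are site-specific recombinases: Cre, from a bacteriophage, joins loxP sites, and Flpo, a codon-optimised form of a yeast enzyme, joins FRT sites. Both can cut out, invert or exchange the DNA between their sites. Cas9 is the RNA-guided DNA nuclease of CRISPR editing. The series title names a reversible gene knockout system that is switched by a chemical.

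The deposited values are estimated counts from Salmon, and they differed strongly in total. The Cre libraries held 1701730, 213907 and 891567 counts, in the order of their replicate numbers, and the Flpo libraries 8833491, 4989524 and 8435741. The groups do not overlap in total, and the Flpo sum was 7.93 times the Cre sum. The Cas9 libraries held 993902, 1643166 and 3761779. Depth and recombinase line therefore cannot be told apart by the groups alone. The counts of list members called are given on 3 scales. All 3 use the same libraries, so a shift in composition that goes with the total remains in each. The scales are counts scaled by trimmed mean of M values (TMM), ranks within a library, and counts thinned at random to 213791 per library, in 5 draws. At that equal depth, in the first draw, 11371 to 12424 genes had a count in the Cre libraries and 11521 to 12699 in the Flpo libraries. The share of counts on a single feature, AC010970.1, ranged from 1.04% to 17.2% in Cre and from 0.591% to 3.35% in Flpo. Libraries of the same line did not always resemble each other most. The rank correlation across tested genes was 0.96 between Flpo replicates 1 and 3, but Flpo replicate 2 correlated at 0.77 and 0.68 with those and at 0.78 with Cre replicate 1. Cre replicates 1 and 3 correlated at 0.92 each with Cas9 replicate 1. Genes are not independent replicates in these values.

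Of 11905 genes tested, 2440 differed between Cre and Flpo (edgeR quasi-likelihood test, Benjamini-Hochberg adjusted p under 0.05), or 20.5%. Of these, 735 (6.17%) were higher in Cre and 1705 (14.3%) lower. The groups did not overlap in CPM (counts scaled to a common library size after TMM) for 43.2% of tested genes, with Cre above Flpo for 15.2% and below for 27.9%. On within-library ranks, 25.9% passed (limma on normal scores), 14.2% higher and 11.7% lower in Cre. In the first thinning draw, 21.0% of the 4948 genes that could be tested passed, 7.28% higher and 13.7% lower. Over the 5 draws the share higher ranged from 7.09% to 11.6% and the share lower from 11.3% to 14.8%. All 2440 called genes had a rank difference of the same sign, and 1983 of them also passed on ranks. Of 1207 called genes testable in the first thinning draw, all 1207 kept their sign and 902 passed. The scales share the same libraries, so this agreement in sign is not independent evidence.

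The split of calls depended on the scaling. Higher genes made up 30.1% of calls with TMM, 70.8% with library totals alone and 54.8% on ranks. After thinning they made up 34.6%, 50.5%, 33.6%, 32.7% and 49.6% of calls in the 5 draws, so in 2 draws the calls were split about evenly. In draw 2 there were 565 higher and 553 lower, and in draw 5 there were 559 and 568. The median log2 difference over all genes was -0.34 with TMM, 0.44 without it and -0.10 in DESeq2, so the medians of gene lists are given below relative to that of all genes. The count of calls also rested on single libraries. It was 0 without Cre replicate 2, without Cre replicate 3 or without Flpo replicate 1, although 4721, 3359 and 3233 genes then had an unadjusted p under 0.05. It was 405 without Flpo replicate 3 and 5559 without Flpo replicate 2. Without Cas9 replicate 2 it was 1386. On ranks without Cre replicate 2, an alternative chosen after seeing the data, 1642 genes passed. A model that also held the log2 total of each library called 0 genes, with 732 at an unadjusted p under 0.05. DESeq2 called 4023 of 25386 genes.

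The called genes also moved with library total among the Cas9 libraries, which carry neither recombinase. Of the 735 genes higher in Cre, 604 (82.2%) had a CPM that fell from the smallest to the middle to the largest Cas9 library, against 28.7% of all tested genes. Of the 1705 genes lower in Cre, 1208 (70.9%) had a CPM that rose with the Cas9 totals, against 31.2% of all. The median CPM of the genes lower in Cre was 11.7, 7.46 and 6.01 in the Cre libraries and 87.5, 35.0 and 102 in the Flpo libraries. In the Cas9 libraries it was 9.14, 21.2 and 32.6. Flpo replicate 2, the smallest of its group, was the lowest Flpo library for 94.0% of these genes, against 52.8% of all tested genes.

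**Figure D1:**
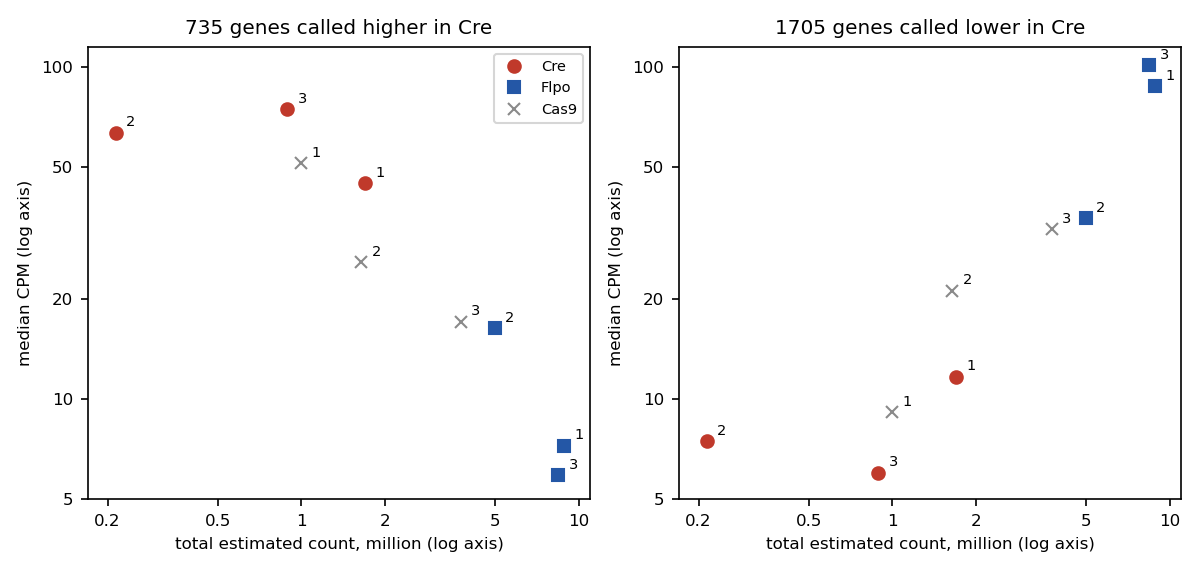
Median CPM of the 735 genes called higher in Cre (left) and the 1705 called lower (right) against the total estimated count of each library, both on log axes; each point is a library and its number the replicate. In the Cas9 libraries, which have neither recombinase, the medians for the genes lower in Cre go from 9.14 to 32.6 as the total grows.

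The construct features in the table set the lines apart. CAS9, shared by every group's label, had 151, 5 and 31 counts in the Cre libraries, 5098, 723 and 10427 in the Flpo libraries and 57, 131 and 438 in the Cas9 libraries. Its CPM was 73.6, 18.7 and 26.6 in Cre and 880, 185 and 1665 in Flpo. The groups do not overlap, and the log2 difference was -4.46 (SE 0.88, edgeR adjusted p 0.0167). In the Cas9 libraries CAS9 took 0.00574%, 0.00797% and 0.0116% of counts, so its share rose with the total there too. Among the Flpo libraries replicate 2, the smallest, was again the lowest. EGFP, a green fluorescent protein, had 154, 2 and 38 counts in the Cre libraries against 0, 0 and 1 in the Flpo libraries, and at most 3 in a Cas9 library. The labels mention no fluorescent protein.

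Markers of HEK293 were checked next, since the extraction text speaks of livers. Of 12 markers, 6 could be tested and none was called by edgeR. VIM, the intermediate filament vimentin, was at 174, 892 and 276 CPM in Cre and 510, 263 and 363 in Flpo, and these ranges overlap. The kidney regulators PAX2 and PAX8 had at most 5 counts in any library. Of 10 liver markers, TF, transferrin, was the sole one that could be tested. It had 64, 9 and 103 counts in Cre and 94, 399 and 52 in Flpo, and was not called. ALB, the serum albumin gene, had no count except 5 in Flpo replicate 2. Of 7 blood markers, LYZ, lysozyme, was the sole testable member, and CD3E was at 0 everywhere. LYZ had 256, 65 and 287 counts in Cre and 244, 638 and 202 in Flpo. It was not called by edgeR but was higher in Cre on ranks. The summed level of the 7 was 155, 304 and 324 CPM of the library total in Cre. In Flpo it was 33.9, 134 and 30.0, with no overlap. For endothelium the sole testable marker of 4 was PECAM1.

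Fibroblast and epithelial markers also differed between the groups, with members called by edgeR. The summed level of 6 fibroblast markers was 664 to 8129 CPM of the library total in Cre and 188 to 214 in Flpo. COL1A1, COL1A2 and COL3A1, the chains of fibrillar collagens I and III, were called higher in Cre, 3 of 4 testable markers. LUM and PDGFRB were too low to test, and DCN had 42 counts or fewer. The unscaled counts of COL1A1 were 310, 437 and 402 in Cre, 501, 287 and 451 in Flpo, and 272, 132 and 305 in Cas9. They did not follow library size. The smooth muscle genes ACTG2 and TAGLN were also called higher on counts of similar size in both lines. ACTG2, an actin, had 2436, 3817 and 4007 counts in Cre and 4214, 2313 and 3182 in Flpo. TAGLN, an actin-binding protein, had 166, 216 and 225 in Cre and 264, 118 and 204 in Flpo. Of the epithelial markers KRT8, KRT18 and KRT19, keratins of simple epithelia, all 3 were called lower in Cre, while EPCAM had at most 6 counts. CDH1, E-cadherin, the other testable marker of the list, was not called, with 22, 4 and 29 counts in Cre and 22, 58 and 11 in the deeper Flpo libraries. The summed level of 5 epithelial markers was 243 to 645 CPM of the library total in Cre and 1043 to 3397 in Flpo. The part of other cells in these values was not tested. In bulk RNA, fewer cells of a type and less RNA per cell cannot be told apart.

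Pathways were then compared list by list, by the count of members called against the background of 14.3% lower and 6.17% higher. That background differed by level, with genes cut into 5 equal classes by mean unscaled count over the 6 libraries. The deeper Flpo libraries weigh most in that mean, so a gene high in Flpo is moved toward the higher classes. The shares per class are therefore partly set by the sorting itself. In the class of lowest count 1.97% were lower and 9.58% higher, and in the highest 32.1% were lower and 2.69% higher. On ranks the shares were 0.252% and 20.9% in the lowest class, and 27.65% and 10% in the highest. The part of level in the list counts was not tested. The lists with the largest shares called lower serve energy supply, protein folding and turnover, DNA replication and splicing. Those with shares of higher calls above background hold zinc finger, chromatin, ion channel, cadherin, matrix, motor, clustered histone and break repair genes, and tubulins through 1 gene of 15. Counts after thinning are given as the range over the 5 draws. For most lists the sign of the difference between higher and lower counts was the same with library totals in place of TMM and on ranks. With totals it turned for break repair (8 higher, 5 lower), hypoxia (3 and 1), interferon-stimulated (4 and 3) and neuronal genes (4 and 0).

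**Figure D2:**
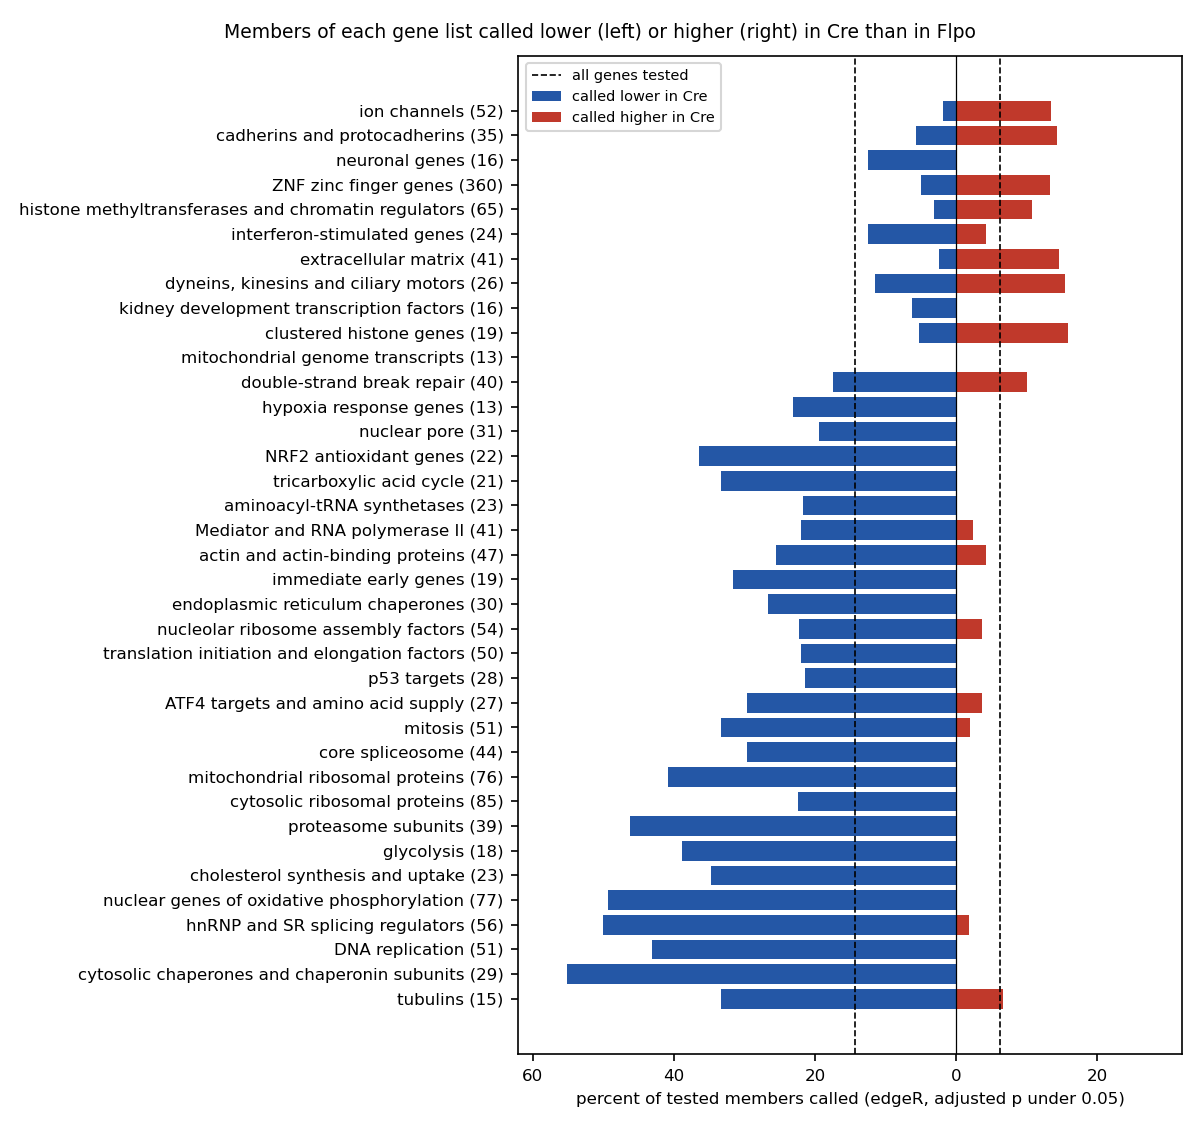
Percent of tested members of each list called lower (blue, left) or higher (red, right) in Cre than in Flpo by edgeR, with the number tested in parentheses, lists ordered by their median difference, and dashed lines at the 14.3% and 6.17% of all tested genes. Cytosolic chaperones reach 55.2% lower, and the 13 mitochondrial genome transcripts have no call.

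Energy supply came first. Oxidative phosphorylation passes electrons through complexes of the inner mitochondrial membrane and uses the resulting proton gradient to make ATP. Its subunits are encoded partly in the nucleus and partly in the mitochondrial genome. Of 77 nuclear subunit genes, 38 (49.4%) were lower in Cre and 0 higher, with a median 1.66 log2 units below that of all genes. On ranks 32 were lower and 1 higher, and after thinning 20 to 31 of 66 to 68 were lower and at most 1 higher. ATP5F1B, the catalytic beta subunit of ATP synthase, was at 262, 254 and 112 CPM in Cre and 3622, 668 and 3305 in Flpo (log2 difference -3.60, SE 0.92, adjusted p 0.0229). COX6A1, a subunit of cytochrome c oxidase, was at 102, 26.1 and 18.9 CPM in Cre and 1342, 373 and 855 in Flpo (-4.08, SE 1.03). For both genes every Cre library was below every Flpo library. Across the Cas9 libraries, 58 of the 77 genes rose with the total, and the median length of their longest transcript was 1582 bases, against 3781 for all genes.

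The promoters of these genes are known to be rich in sites of NRF1, a regulator of nuclear genes for mitochondria. Promoters, 250 bases before to 50 after the start, were taken from RefSeq (GRCh38.p14) for 63 of the 77 genes and searched for the NRF1 core GCATGCGC on both strands. It was found in 14 (22.2%), and in 7 of 28 promoters of members called lower. The share was 5.74% of 8994 promoters of tested genes and 3.27% of all 27305. The windows of 3 members called lower are shown, with the matched core in capitals, to let the shared element be seen in its varied surroundings:
COX6A1, chr12:120437863-120437942, plus strand: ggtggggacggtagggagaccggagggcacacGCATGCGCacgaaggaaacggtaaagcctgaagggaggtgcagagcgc
CYCS, chr7:25125382-25125469, minus strand: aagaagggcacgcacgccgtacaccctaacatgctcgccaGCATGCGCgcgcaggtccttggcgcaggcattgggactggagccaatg
COX5B, chr2:97645886-97645973, plus strand: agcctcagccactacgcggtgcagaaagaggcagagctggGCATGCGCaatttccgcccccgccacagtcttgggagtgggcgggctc
CYCS, cytochrome c, the electron carrier between complexes, was at 62.9, 70.9 and 121 CPM in Cre and 382, 103 and 480 in Flpo. Flpo replicate 2 lay inside the Cre range. COX5B, another oxidase subunit, was at 68.2, 11.2 and 18.9 in Cre and 257, 116 and 185 in Flpo, with no overlap. A match describes the letters of the promoter and is neither a bound site nor a cause.

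The 13 protein genes of the mitochondrial genome differed from the nuclear subunits in their counts. None was called by edgeR on TMM counts, on ranks or after thinning, and DESeq2 called 2 lower. Their median percentile lay between 99.5 and 99.87 in every Cre and Flpo library. So near the top a change in CPM moves a percentile little, and the lack of rank calls says little about these genes. Their median was 0.19 log2 units below that of all genes on TMM counts and 0.29 above it on the rank scale. MT-CO2, an oxidase subunit, was at 3997, 3695 and 2121 CPM in Cre and 21280, 10810 and 14300 in Flpo (log2 difference -2.24, SE 1.08, adjusted p 0.138). All 13 together took 3.01%, 11.2% and 4.46% of counts in Cre and 7.63%, 4.01% and 6.49% in Flpo. Cre replicate 2, the shallowest library, had the highest share.

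The enzymes upstream of the respiratory chain showed lower calls too. Of 21 tricarboxylic acid cycle genes, which oxidise acetyl groups, 7 (33.3%) were lower and 0 higher. MDH2, the mitochondrial malate dehydrogenase, was at 17.5, 33.6 and 4.29 CPM in Cre and 424, 87.9 and 438 in Flpo. Of 18 glycolysis genes, 7 (38.9%) were lower and 0 higher. LDHA, which turns pyruvate into lactate, was at 193, 175 and 66.9 CPM in Cre and 3492, 856 and 3504 in Flpo (-4.18, SE 0.95, adjusted p 0.0185). ENO1, enolase, was at 293, 224 and 83.2 in Cre and 4062, 889 and 3754 in Flpo. Neither gene overlapped between groups. On ranks 6 of the 18 glycolysis genes and 6 of the 21 cycle genes passed as lower. After thinning 4 to 6 of 15 glycolysis genes and 3 to 6 of 12 to 14 cycle genes did.

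Protein synthesis was compared from the ribosome outward. Of 85 cytosolic ribosomal protein genes, 19 (22.4%) were lower and 0 higher. On ranks 9 (10.6%) were lower, below the 11.7% of all genes, and after thinning 14.6% to 24.1% were, against 11.3% to 14.8% of all. Their median was 1.47 log2 units below that of all genes. RPL7A was at 231, 93.3 and 53.2 CPM in Cre and 2745, 1297 and 1745 in Flpo (-3.92, SE 1.00, adjusted p 0.0227). Across the Cas9 libraries, 67 of the 85 rose with the total. Many ribosomal protein genes have near-identical pseudogenes that share reads, so the split of counts among copies is uncertain. Of 50 initiation and elongation factor genes, 11 (22%) were lower and 0 higher, with 9 lower on ranks and 8 to 12 after thinning. EIF2S3, the gamma subunit of the factor that brings initiator tRNA to the ribosome, was at 60.9, 89.6 and 37.8 CPM in Cre and 1869, 790 and 2043 in Flpo (-4.67, SE 0.91). Of 23 aminoacyl-tRNA synthetase genes, which charge tRNAs with amino acids, 5 were lower, on ranks 4, and after thinning 0 to 5.

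Ribosome assembly and the ribosomes of mitochondria differed in share. Of 54 nucleolar assembly factor genes, 12 (22.2%) were lower and 2 higher. On ranks 10 were lower and 4 higher, and after thinning 3 to 7 were lower and 2 to 3 higher. The higher pair were DDX10, an RNA helicase, at 192, 258 and 324 CPM in Cre and 45.4, 127 and 32.1 in Flpo, and WDR3. NPM1, nucleophosmin, was lower, at 165, 44.8 and 48.0 in Cre and 1055, 379 and 1274 in Flpo. Of 76 mitochondrial ribosomal protein genes, 31 (40.8%) were lower and 0 higher, and 28 were lower on ranks and 9 to 12 of 42 to 46 after thinning. MRPL49 was at 8.28, 7.46 and 21.4 CPM in Cre and 963, 175 and 1142 in Flpo (-5.87, SE 0.96, adjusted p 0.0167). The Cas9 libraries were near the Cre ones for this gene, at 8.31, 17.8 and 49.4.

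Protein folding and turnover were compared next, and cytosolic chaperones had the highest share of lower calls of the pathway lists. Cytosolic chaperones keep new and damaged proteins soluble, and the CCT chaperonin folds actin and tubulin in its chamber. Of 29 chaperone and chaperonin genes, 16 (55.2%) were lower and 0 higher, with a median 2.12 log2 units below that of all genes. On ranks 14 were lower and 1 higher, and after thinning 13 to 16 of 21 to 23 were lower. STIP1, which hands clients from HSP70 to HSP90, was at 60.4, 67.2 and 41.2 CPM in Cre and 718, 187 and 995 in Flpo (-3.50, SE 0.72, adjusted p 0.0167). FKBP4, an HSP90 partner of steroid receptors, was at 134, 26.1 and 39.5 in Cre and 861, 280 and 2485 in Flpo. HSP90AA1 itself was at 2357, 497 and 1830 in Cre and 3116, 1972 and 2501 in Flpo, ranges that overlap, with an adjusted p of 0.493. Among the Cas9 libraries 16 of the 29 rose with the total.

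Heat shock factors bind inverted repeats of a short unit in many chaperone promoters. The pair GAANNTTC, its own reverse complement, was found in 6 of 25 chaperone promoters (24.0%) and in 4 of the 14 of members called lower. It was found in 4.67% of the 8994 promoters of tested genes and 6.87% of all 27305. The windows of these 4 genes are shown with 1 matched unit each in capitals:
HSPA8, chr11:123062319-123062386, minus strand: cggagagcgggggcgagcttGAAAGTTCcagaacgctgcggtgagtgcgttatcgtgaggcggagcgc
TCP1, chr6:159789786-159789852, minus strand: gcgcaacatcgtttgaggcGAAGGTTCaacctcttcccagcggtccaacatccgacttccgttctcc
HSPA1B, chr6:31827593-31827680, plus strand: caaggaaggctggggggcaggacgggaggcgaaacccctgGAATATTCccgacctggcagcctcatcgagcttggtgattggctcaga
DNAJA1, chr9:33025035-33025122, plus strand: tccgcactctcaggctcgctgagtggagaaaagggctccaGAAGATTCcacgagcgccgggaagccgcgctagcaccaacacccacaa
HSPA8, the constitutive HSP70, was at 58.5, 146 and 54.1 CPM in Cre and 771, 184 and 850 in Flpo. HSPA1B, an inducible HSP70 with a near-identical copy beside it, was at 19.0, 63.5 and 32.6 in Cre and 258, 87.4 and 417 in Flpo. TCP1, a chaperonin subunit, was at 37.5, 44.8 and 14.6 in Cre and 361, 119 and 452 in Flpo. DNAJA1, an HSP40 that stimulates HSP70, was at 30.2, 3.73 and 22.3 in Cre and 270, 54.7 and 363 in Flpo. None of the 4 overlapped between groups.

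The proteasome degrades proteins tagged with ubiquitin. Of 39 subunit genes, 18 (46.1%) were lower and 0 higher. On ranks 14 were lower and 1 higher, and after thinning 10 to 15 of 32 to 34 were lower. PSMA4, of the alpha ring, was at 89.7, 33.6 and 44.6 CPM in Cre and 740, 185 and 758 in Flpo (-3.29, SE 0.73, adjusted p 0.0175). PSMC5, an ATPase of the cap, was at 94.0, 29.9 and 34.3 in Cre and 597, 251 and 636 in Flpo. UBB, a polyubiquitin gene among the called genes of highest count, was at 270, 1941 and 537 CPM in Cre and 50560, 10180 and 28220 in Flpo.

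A pair of members of separate lists share a promoter. PSMA2, a proteasome alpha subunit, and MRPL32, a mitochondrial ribosomal protein, start on opposite strands of the same stretch of chromosome 7, and the same NRF1 core lies between them. The core was found in 2 of 34 proteasome promoters (5.88%) and in 6 of 67 promoters of mitochondrial ribosomal protein genes (8.96%), against 5.74% of promoters of tested genes, so its share in the proteasome list is near that of all. The stretch is shown, as read from each gene, because both lists meet in it:
PSMA2, chr7:42932297-42932384, minus strand: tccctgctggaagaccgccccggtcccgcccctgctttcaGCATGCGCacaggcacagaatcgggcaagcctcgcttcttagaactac
MRPL32, chr7:42932297-42932384, plus strand: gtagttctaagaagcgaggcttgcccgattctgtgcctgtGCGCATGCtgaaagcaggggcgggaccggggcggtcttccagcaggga
PSMA2 was at 47.7, 63.5 and 60.9 CPM in Cre and 409, 111 and 330 in Flpo (-2.31, SE 0.57). MRPL32 was at 1.95, 7.46 and 2.57 in Cre and 54.5, 14.1 and 56.0 in Flpo (-3.78, SE 0.90). Both were called lower, with no overlap between groups.

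**Figure D3:**
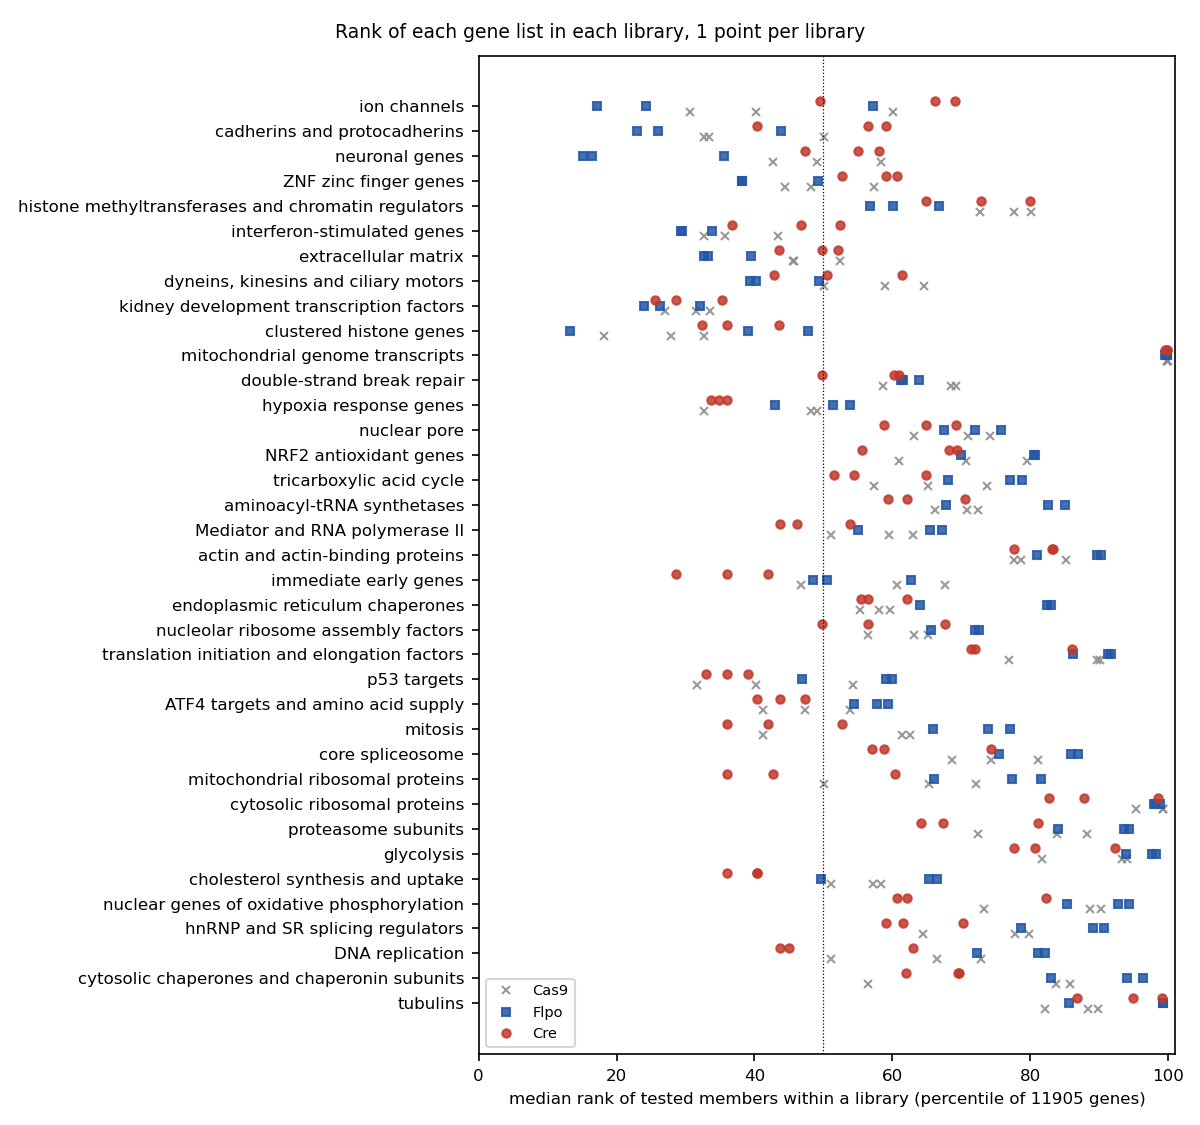
Median rank of the tested members of each list within each library, as a percentile of the 11905 tested genes; each symbol is a library (Cre circles, Flpo squares, Cas9 crosses) and lists are in the same order as in the plot of shares called. For cytosolic chaperones the Cre libraries sit at 69.5, 69.6 and 61.9 and the Flpo libraries at 94.0, 83.0 and 96.4, with no overlap.

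The endoplasmic reticulum and stress responses followed with smaller shares. Of 30 reticulum chaperone genes, 8 (26.7%) were lower and 0 higher, with 6 lower on ranks and 1 to 6 after thinning. HSPA5, the main HSP70 of the reticulum, was at 47.8, 123.2 and 48.0 CPM in Cre and 536, 147 and 826 in Flpo. Of 27 genes that ATF4 is known to induce or that supply amino acids, 8 (29.6%) were lower and 1 higher. On ranks 9 were lower and 2 higher, and after thinning 4 to 5 of 11 were lower and 1 higher. SLC3A2, the heavy chain of amino acid exchangers, was at 44.8, 7.46 and 13.7 in Cre and 344, 103 and 341 in Flpo (-3.46, SE 0.77). JDP2, a repressor of the AP-1 family, was the higher member, at 87.2, 205 and 188 in Cre and 11.2, 33.5 and 6.71 in Flpo (3.22, SE 0.74). Of 22 antioxidant genes known as NRF2 targets, 8 (36.4%) were lower, among them PRDX1, a peroxidase, at 59.9, 48.5 and 39.5 in Cre and 1445, 286 and 1284 in Flpo. On ranks 5 of the 22 were lower, and after thinning 5 to 8 of 13 to 14.

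Of 28 p53 target genes, 6 (21.4%) were lower and 0 higher. On ranks 6 were lower and 1 higher, and after thinning 2 to 3 of 8 to 10 were lower and at most 1 higher. PMAIP1, the cell death activator NOXA, was at 7.80, 7.46 and 5.15 CPM in Cre and 150, 38.6 and 219 in Flpo (-4.33, SE 0.83). HEK293 cells carry adenoviral proteins that bind p53. Of 24 testable interferon-stimulated genes, 3 were lower and 1 higher, whereas on ranks 3 were lower and 4 higher. After thinning 2 to 3 of 8 to 10 were lower and at most 1 higher. The lower members were IFITM1, IFITM2 and IFITM3, small membrane proteins that hinder virus entry, and IFITM3 was at 138, 56.0 and 24.9 in Cre and 1670, 297 and 1131 in Flpo. The higher member, MX1, a GTPase against viruses, was at 18.0, 33.6 and 34.3 in Cre and 1.90, 5.62 and 1.92 in Flpo. The list median was 0.42 above that of all genes with TMM and 0.29 below it in DESeq2. Of 13 hypoxia genes 3 were lower and 0 higher, on ranks 2 in each direction, and after thinning 2 could be tested. Of 19 immediate early genes 6 (31.6%) were lower, with DUSP1, a phosphatase of MAP kinases, at 8.77, 22.4 and 7.72 in Cre and 529, 76.7 and 739 in Flpo. On ranks 5 of the 19 were lower and 1 higher, and after thinning 1 of 6 to 8 was lower.

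Cholesterol synthesis gave 8 lower genes of 23 (34.8%) and 0 higher, with 9 lower on ranks and 2 to 4 of 10 to 11 after thinning. CYP51A1, which removes a methyl group from lanosterol, was at 63.8, 142 and 105 CPM in Cre and 1731, 668 and 2063 in Flpo (-3.86, SE 0.79, adjusted p 0.0167). EBP, a sterol isomerase, was at 14.1, 3.73 and 6.01 in Cre and 219, 65.9 and 206 in Flpo. Both genes kept the groups apart.

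Genes of the cell cycle were called lower in both its replication and its division lists. Of 51 DNA replication genes, 22 (43.1%) were lower and 0 higher, with a median 1.70 log2 units below that of all genes. On ranks 20 were lower and 1 higher, and after thinning 10 to 13 of 28 to 31 were lower. MCM7, part of the replicative helicase, was at 108, 22.4 and 49.8 CPM in Cre and 520, 184 and 611 in Flpo (-2.82, SE 0.70, adjusted p 0.0213). ORC6, of the origin recognition complex, was at 64.3, 59.7 and 46.3 in Cre and 709, 495 and 625 in Flpo. Of 51 mitosis genes, 17 (33.3%) were lower and 1 higher. On ranks 16 were lower and 3 higher, and after thinning 6 to 8 of 23 to 27 were lower. UBE2C, which feeds ubiquitin to the anaphase-promoting complex, was at 9.26, 18.7 and 12.0 in Cre and 367, 97.9 and 254 in Flpo. INCENP, the scaffold of the Aurora B complex, was the higher member, at 51.6, 56.0 and 60.9 in Cre and 4.66, 8.95 and 3.51 in Flpo (3.30, SE 0.67).

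Double-strand break repair, the process that heals Cas9 cuts, showed calls in both directions: of 40 genes 7 (17.5%) were lower and 4 (10%) higher. On ranks 7 were lower and 6 higher, and after thinning 3 were lower and 1 to 6 higher. XRCC6 and XRCC5, the Ku pair that binds broken ends, were lower. XRCC6 was at 175, 48.5 and 41.2 CPM in Cre and 940, 264 and 1190 in Flpo (-3.15, SE 0.77). ATM, the kinase that signals a break, was higher, at 217, 362 and 419 in Cre and 64.3, 127 and 35.0 in Flpo (2.14, SE 0.60). MRE11, a nuclease of the end-binding complex, was higher, at 403, 276 and 866 in Cre and 108, 157 and 81.6 in Flpo. No group overlapped for these genes.

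RNA processing showed a large share of lower calls among splicing regulators. Of 56 hnRNP and SR genes, which choose splice sites, 28 (50%) were lower and 1 higher. On ranks 24 were lower and 3 higher, and after thinning 18 to 23 of 42 to 45 were lower and 1 to 2 higher. HNRNPA1 was at 230, 63.5 and 60.1 CPM in Cre and 2238, 884 and 2699 in Flpo (-4.02, SE 0.88, adjusted p 0.0174). CLK3, a kinase of SR proteins, was the higher member, at 447, 291 and 728 in Cre and 93.5, 139 and 66.7 in Flpo. Of 44 core spliceosome genes, 13 (29.6%) were lower and 0 higher. On ranks 11 were lower and 1 higher, and after thinning 8 to 12 of 33 to 34 were lower. SNRPG, a protein of the Sm ring, was at 8.28, 11.2 and 6.86 in Cre and 427, 116 and 363 in Flpo. Of 41 Mediator and RNA polymerase II genes, 9 (21.9%) were lower and 1 higher, and of 31 nuclear pore and transport genes 6 (19.4%) were lower. On ranks the lower members numbered 7 and 4, and after thinning 2 to 6 and 2.

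The cytoskeleton was mixed. Of 15 tubulin genes, 5 (33.3%) were lower and 1 higher. On ranks 2 were lower and 1 higher, and after thinning 3 to 4 of 13 were lower. TUBA1C was at 36.0, 224 and 70.4 CPM in Cre and 5089, 688 and 3546 in Flpo (-4.86, SE 1.17). Of 47 actin and actin-binding genes, 12 (25.5%) were lower and 2, TAGLN and MYL9, higher. The actin ACTG2, called higher as described above, is not in this list. On ranks 8 were lower and 2 higher, and after thinning 8 to 10 of 40 to 43 were lower. CFL1, cofilin, which severs filaments, was at 237, 44.8 and 103 in Cre and 2385, 353 and 2178 in Flpo. ACTB, the cytoplasmic beta actin, was at 867, 4173 and 1245 in Cre and 56580, 4078 and 47330 in Flpo, with an overlap through replicate 2 of each group and an adjusted p of 0.0512. Of 26 dynein, kinesin and ciliary motor genes 4 were higher and 3 lower, on ranks 7 and 3, and after thinning 2 to 5 were higher and at most 3 lower.

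Lists with more members higher than lower came next. ZNF genes encode zinc finger proteins, most of which bind DNA, and many of which silence mobile elements through a KRAB domain. Of 360 tested, 48 (13.3%) were higher and 18 (5%) lower, with a median 0.85 above that of all genes. On ranks 91 were higher and 13 lower, and after thinning 28 to 45 of 149 to 154 were higher and 2 to 3 lower. Without Flpo replicate 3 the counts were 3 higher and 6 lower of 371, where 31 of all 12352 genes tested (0.251%) were higher and 374 (3.03%) lower, and the median was 0.71 above that of all genes. ZNF8 was at 500, 952 and 946 CPM in Cre and 64.7, 151 and 31.8 in Flpo (3.27, SE 0.74, adjusted p 0.0185). ZNF417 was among the largest rises, at 111, 78.4 and 235 in Cre and 6.04, 9.46 and 4.95 in Flpo (4.39, SE 0.78). Among the Cas9 libraries 177 of the 360 fell with the total, and ZNF8 was at 629, 355 and 182. ZNF471 went the other way and was at 202, 1220 and 173 in Flpo, with replicate 2 the highest, against 39.95, 82.1 and 47.2 in Cre.

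Chromatin regulators also had more members higher than lower. Of 65 histone methyltransferase and chromatin regulator genes, 7 (10.8%) were higher and 2 (3.08%) lower, and on ranks 17 were higher and 1 lower. After thinning 2 to 8 of 38 to 40 were higher and at most 1 lower. CHD8, a chromatin remodeller, was at 312, 403 and 510 CPM in Cre and 48.5, 121 and 42.3 in Flpo (2.53, SE 0.63, adjusted p 0.0211). KAT6B, an acetyltransferase, was at 294, 336 and 449 in Cre and 56.6, 176 and 40.5 in Flpo. KDM1A, a demethylase, was lower, at 22.9, 0 and 1.72 in Cre and 64.9, 37.3 and 109 in Flpo. The median length of the longest transcript was 8095 bases in this list. Of 19 testable clustered histone genes 3 were higher and 1 lower, on ranks as well, and after thinning none was higher and at most 1 of 3 to 4 lower. Their mRNAs mostly lack a poly(A) tail and their copies are near-identical, so these counts are uncertain.

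Genes of membrane excitability and adhesion gave few calls with high medians. Of 52 testable ion channel genes, 7 (13.5%) were higher and 1 lower, with a median 1.48 above that of all genes. On ranks 18 were higher and 1 lower, and after thinning 2 to 5 of 21 to 23 were higher. CACNA1D, a calcium channel, was at 137, 250 and 287 CPM in Cre and 17.4, 77.7 and 7.18 in Flpo (2.72, SE 0.82). KCNN2, a potassium channel, was the lower member, with 3, 0 and 1 counts in Cre, 100, 151 and 95 in Flpo and 0 in every Cas9 library. Of 35 cadherins and protocadherins, 5 (14.3%) were higher and 2 lower. On ranks 10 were higher and 1 lower, and after thinning 1 to 4 of 11 to 13 were higher and 1 lower. PCDHB13, a clustered protocadherin, was at 32.2, 134 and 106 in Cre and 4.14, 9.71 and 2.55 in Flpo (4.03, SE 0.84). Of 41 matrix genes 6 were higher, 3 of them the collagens described above, and 1 was lower. On ranks 10 were higher and 1 lower, and after thinning 3 to 5 of 12 to 14 were higher. Of 16 neuronal genes 2 were lower and 0 higher by edgeR, while 4 were higher on ranks and 1 to 2 of 5 to 7 lower after thinning. Of 16 kidney development factors SIX2 was the sole one called, lower in Cre, and none was called on ranks or after thinning.

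The calls were set against a fit on ranks without Cre replicate 2, the shallowest library. Lower calls then numbered 23 of 76 mitochondrial ribosomal protein genes (background 893 of 11905), 16 of 77 oxidative phosphorylation genes, 14 of 51 DNA replication genes and 14 of 56 splicing regulators. They numbered 13 of 51 mitosis genes, 12 of 29 cytosolic chaperones, 10 of 39 proteasome subunits and 3 of 85 cytosolic ribosomal protein genes. Higher calls numbered 44 of 360 ZNF genes and 11 of 65 chromatin regulators (background 749).

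**Figure D4:**
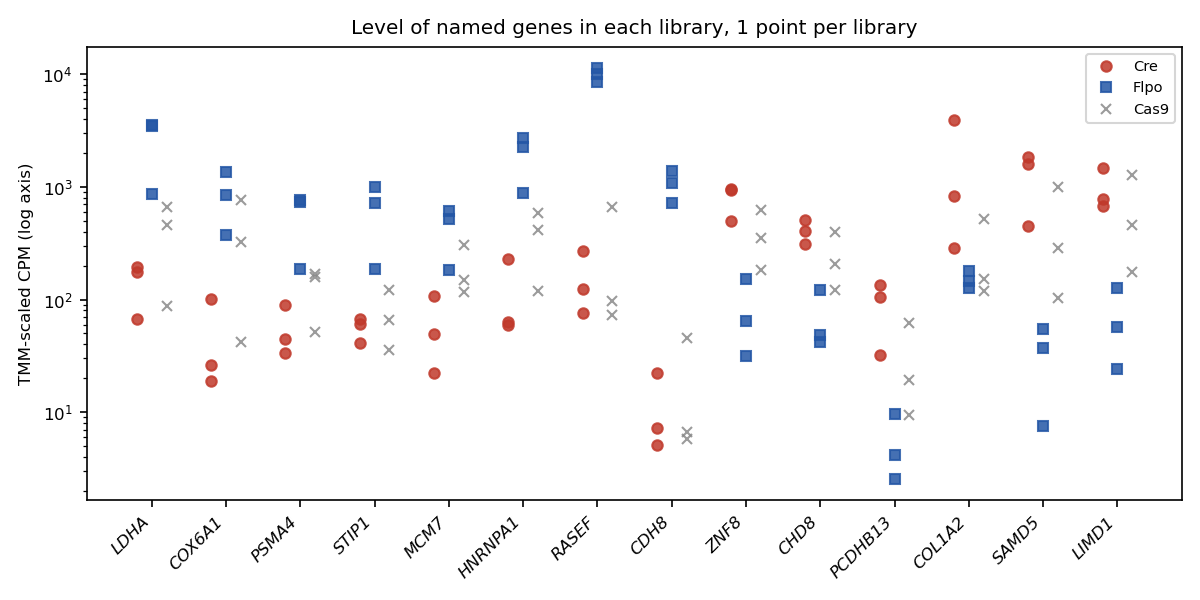
TMM-scaled CPM of named genes in every library on a log axis; each point is a library (Cre circles, Flpo squares, Cas9 crosses). RASEF and CDH8 show all 3 Flpo libraries close together above every other library, whereas for genes such as LDHA Flpo replicate 2 lies between its group and the Cre libraries.

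Some genes set all 3 Flpo libraries apart, replicate 2 included. Among 1991 called genes with a mean of at least 50 counts, 56 had a gap of at least 8-fold between the lowest Flpo and the highest Cre library (after adding 1 CPM), and 2 had such a gap the other way. That mean is of unscaled counts, so genes high in the deeper Flpo libraries reach it more easily. The numbers 56 and 2 are therefore not a like comparison of the 2 directions. RASEF, a small GTPase of the RAB family, was at 124, 269 and 76.4 CPM in Cre and 10000, 8590 and 11430 in Flpo (-6.01, SE 1.21, adjusted p 0.0167). CDH8, a type II cadherin of neurons, was at 7.31, 22.4 and 5.15 in Cre and 1079, 724 and 1378 in Flpo (-6.76, SE 1.03). In Cas9 replicate 3 RASEF reached 668 and CDH8 45.4, still below every Flpo library. The following 3 were chosen after their values were seen. LRRTM4, a synaptic adhesion protein, was at 0, 7.46 and 7.72 in Cre and 312, 330 and 390 in Flpo. WDR72, known for enamel formation, was at 0, 7.46 and 1.72 in Cre and 164, 163 and 207 in Flpo. SGPL1, which breaks down sphingosine phosphate, was at 14.1, 18.7 and 16.3 in Cre and 564, 364 and 514 in Flpo. In the Cas9 libraries LRRTM4 was at 4.99, 0 and 11.4 and WDR72 at 0, 0 and 8.57. SGPL1 was at 16.6, 36.15 and 293 there, so it rose with the Cas9 total. These genes were picked for that gap, so it is a description of them.

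The 2 genes with so wide a gap in the other direction were SAMD5 and RNA5-8SP6, a pseudogene copy of 5.8S ribosomal RNA. SAMD5, a protein with a sterile alpha motif, was at 453, 1833 and 1592 CPM in Cre and 37.4, 54.4 and 7.503 in Flpo (5.29, SE 1.07). Its unscaled counts, 930, 491 and 1856, exceeded the 217, 213 and 47 of the deeper Flpo libraries. In the Cas9 libraries it was at 999.7, 286 and 103. CPB1, carboxypeptidase B of the pancreas, had the largest rise among protein-coding genes with a mean of 50 counts, at 35.1, 243 and 170 in Cre and 0.345, 4.60 and 0.160 in Flpo (6.51, SE 1.39, adjusted p 0.0169). Of all 735 genes higher in Cre, 499 (67.9%) had a larger unscaled sum in Cre than in Flpo, against 6.76% of all 11905 tested genes. For 20 of them every Cre count exceeded every Flpo count, and the number among all 11905 tested genes was also 20. THBS1, thrombospondin, is in this set, with 59, 55 and 84 counts in Cre, 53, 46 and 51 in Flpo and 64, 22 and 41 in Cas9. Like those of COL1A1, its counts did not follow library size.

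At the other extreme, 38 called genes had no count in any Cre library, 14 of them protein-coding. They passed the filter on low counts through the other libraries, and an absence is reached more easily in the shallower Cre libraries. How many tested genes outside the calls had no Cre count is not given. Against a floor of 3 counts over the Cre group, NPIPB3 was at least 78.3-fold lower in Cre and NPIPB12 at least 77.8-fold. RNASEK-C17orf49 was at least 40.2-fold lower, SLX1B at least 39.1-fold and THSD8 at least 36.0-fold. C15orf38-AP3S2 had 1, 0 and 0 counts in Cre and a CPM of 310, 127 and 295 in Flpo. NPIPB and SLX1 genes have near-identical copies, and RNASEK-C17orf49 and C15orf38-AP3S2 are read-through genes that overlap their neighbours. How the counts were split among such copies is uncertain. These floors cover counting error only.

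Calls also differed by transcript length, with genes cut into 5 equal classes by their longest annotated transcript. In the shortest class 27.5% were lower in Cre and 6.44% higher, and in the longest class 4.42% were lower and 6.53% higher. On ranks the share higher went from 10.2% in the shortest class to 19.3% in the longest. The share of protein-coding counts in genes with transcripts over 5000 bases was 37.4%, 45.8% and 46.5% in the Cre libraries. It was 18.4%, 49.6% and 19.4% in the Flpo libraries, with replicate 2 beside the Cre values, and 43.7%, 33.2% and 27.2% in Cas9. The median longest transcript was 8095 bases for chromatin regulators, 4345 for ZNF genes, 2564 for cytosolic chaperones and 1872 for ribosomal proteins. The part of length in their calls was not tested.

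**Figure D5:**
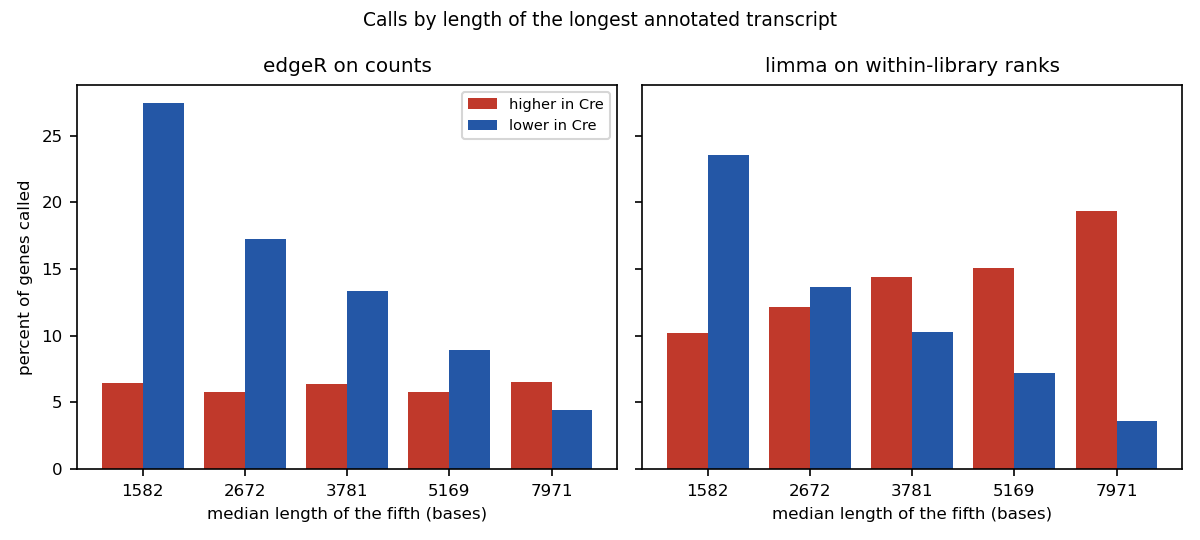
Percent of genes called higher (red) or lower (blue) in Cre than in Flpo in 5 equal classes of the longest annotated transcript's length, labelled with each class's median in bases, by edgeR on counts (left) and limma on ranks (right). The share called lower on counts goes from 27.5% in the shortest class to 4.42% in the longest.

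The highest median relative difference was on chromosome 19, which is rich in ZNF genes, at 0.65, followed by chromosome 15 at 0.40. On chromosome 19, 97 of 941 genes (10.3%) were higher and 85 (9.03%) lower.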

How the data were processed

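RNA sequencing libraries (TruSeq RNA kit, per the labels' protocols) of HEK293 cells were analysed from the deposited table of estimated counts per gene. The authors made these estimated counts with Salmon 0.14.1 on hg38, per the submitters' processing notes. The estimated counts were rounded to whole numbers, and all 35876 symbols were kept, of which 35378 matched GENCODE 29. Totals ranged 41.3-fold between libraries. Groups were taken from the sample titles. The members and the gene lists were chosen with earlier results of these data known.

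All 9 libraries were fitted with edgeR 4.0.16 (TMM, filterByExpr with a minimum count of 10 and total of 15, quasi-likelihood F test, Benjamini-Hochberg threshold 0.05) in R 4.3.3. Every adjusted p comes from this fit unless limma 3.58.1 on normal scores of within-library ranks or DESeq2 1.42.0 is named. Library CPM was computed after TMM. The SE of a log2 difference is its absolute value divided by the square root of the F statistic. Thinning drew 213791 counts per library, in 5 draws. The first stands where no range is given. The fit was also run on simulated counts, with a smaller spread between libraries than the real fit found (common biological coefficient of variation 0.556). The simulated levels did not shift with library total, so that run cannot show how the fit behaves under such a shift. Named genes were the 6 largest rises and falls among protein-coding calls with a mean of 50 counts and no overlap, the 5 called genes of highest count in each direction, and up to 3 called genes of highest count per list and direction. Some genes picked by these rules are not reported here. Others named besides these were chosen after their values were seen: genes with printed promoters, HSP90AA1, ACTB, THBS1, RNA5-8SP6 and markers.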

Additional observations from a re-analysis of the deposited data

How the results depend on the processing

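Of 11905 genes, 2440 passed. The count was 4023 with DESeq2, 1622 with a minimum count of 50, 1588 against a 1.5-fold change, 1040 in the first thinning draw (up to 1127 in the others), and 4919 on ranks without Flpo replicate 2. It stayed within 1.5 times of 2440 without TMM (2879), without a filter (3613), with the 6 Cre and Flpo libraries alone (2161), on ranks (3085) and on nuclear protein-coding genes (2235). The last, and both rank fits that left out a library, were chosen after seeing the data. Leaving out each library in turn gave 0 to 5559 calls. The fit with a replicate block called 1568 genes, of which 495 were higher and 1073 lower in Cre. The deviations of each library from its group's mean log CPM were correlated between the lines. Same-numbered Cre and Flpo libraries correlated at 0.37, 0.19 and -0.21. Cre replicates 1 and 2 correlated best with the Flpo library of their own number. Cre replicate 3 correlated best with Flpo replicate 2 (0.25). Whether the numbers pair the libraries is therefore not known.

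With the log2 total as a covariate no gene passed (732 at an unadjusted p under 0.05), and 18 named genes that had passed changed sign. Their log2 differences were then -0.73 for ACTG2, -0.84 for COL1A2, -0.64 for COL1A1, -0.40 for COL3A1, -0.36 for TAGLN and -0.33 for HIST1H3E. They were 0.20 for MARS, 0.57 for NHP2, 0.16 for ATP5MF, 0.54 for SLC1A5, 0.41 for IDH3B and 0.37 for IFITM2. They were 0.51 for KDM1A, 0.26 for POLR2A, 0.22 for POLR2E, 0.13 for LSM4, 0.36 for DYNC1LI1 and 1.17 for KRT19. No named gene that had passed changed sign under any other alternative. The cause was not tested. The smallest library, with 213907 counts, limits what can be seen of genes at low counts.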
